A study of Arabidopsis thaliana with 12 samples.

Results

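The comparison described here is that of djc31 with wild type in Arabidopsis thaliana: 3 libraries of each, 6 of the 12 libraries of the series, chosen by their labelled genotype. Of 36917 loci in the deposited table, 19975 had enough reads to be tested. Wild type was the accession Col-0, and djc31 was the T-DNA insertion line SALK_034886, in the gene DJC31 (AT5G12430, chromosome 5). The other 6 libraries came from djc62, which is the line SALK_050913 with an insertion in DJC62 (AT2G41520, chromosome 2), and from the double mutant djc31 djc62; they entered the estimate of the spread, and djc62 served as a comparison. All plants were whole plants at the stage of 4 leaves, raised on soil with 16 h of light (100 µmol photons per square metre and second, 21 °C) and 8 h of dark (16 °C), and no stress treatment is named. Each gene is represented by 1 insertion line. The labels give neither the hour of harvest nor a batch, and nothing in them says that replicates were grown separately. The p-values therefore reflect variation among these samples alone, part of which may be technical.

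DJC31 and DJC62 belong to the co-chaperones that combine tetratricopeptide repeats with a J domain. A J domain stimulates the ATP hydrolysis of HSP70 chaperones, and tetratricopeptide repeats of the clamp type hold the C-terminal ends of HSP70 and HSP90. Such proteins bring the HSP70 and HSP90 machines together on client proteins, which in plants include hormone receptors, immune receptors and kinases. The series was set up to study both genes in abiotic stress.

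Values are the authors' normalised read counts, n = 3 libraries a genotype, given per library or as mean ± SD, and differences are on the log2(value + 1) scale with adjusted p from limma and Benjamini-Hochberg adjustment; a locus passed at adjusted p under 0.05, and "rose" and "fell" are used only for such loci. DJC31 itself had 784, 699.7 and 697 in wild type and 79.6, 135 and 130.2 in djc31. All djc31 libraries lay below all wild-type libraries, with 15.8% of the mean level left (log2 difference -2.69 ± 0.19 SE, adjusted p = 1.94e-08). Reads outside the insertion can remain, so this level does not measure intact transcript. The loci next to DJC31 in the table, AT5G12420 and AT5G12440, did not pass (adjusted p = 0.0678 and 0.737). DJC62, its paralogue, had 525, 587 and 436 in wild type and 311, 494 and 434 in djc31 and did not pass (adjusted p = 0.336). Depth per library lay between 13.6 M reads, in djc31 replicate 2, and 31.08 M.

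Whole-plant samples were checked against organ markers. The seed storage genes CRA1, SESA1 and OLEO1 were too low to be tested, as were 5 of 8 root markers. Of the 3 root markers tested 1 fell and none rose. Of the flower genes, AP3 was too low to be tested and SEP3 did not pass. AG had 18.3, 19.3 and 13.9 in wild type and 0, 0 and 5.07 in djc31, and PI had 24.4, 45.8 and 26.7 in wild type and 2.65, 12.9 and 7.61 in djc31. Both fell from a very low level without overlap (adjusted p = 0.0179 for AG; log2 difference -2.08 ± 0.62 SE, adjusted p = 0.0186 for PI). AG lost its call without wild type replicate 1 or 2 (adjusted p up to 0.0628), and PI without djc31 replicate 1 or wild type replicate 2 (up to 0.0828). In whole plants, fewer cells of a type and less RNA per cell cannot be told apart.

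**Figure D1:**
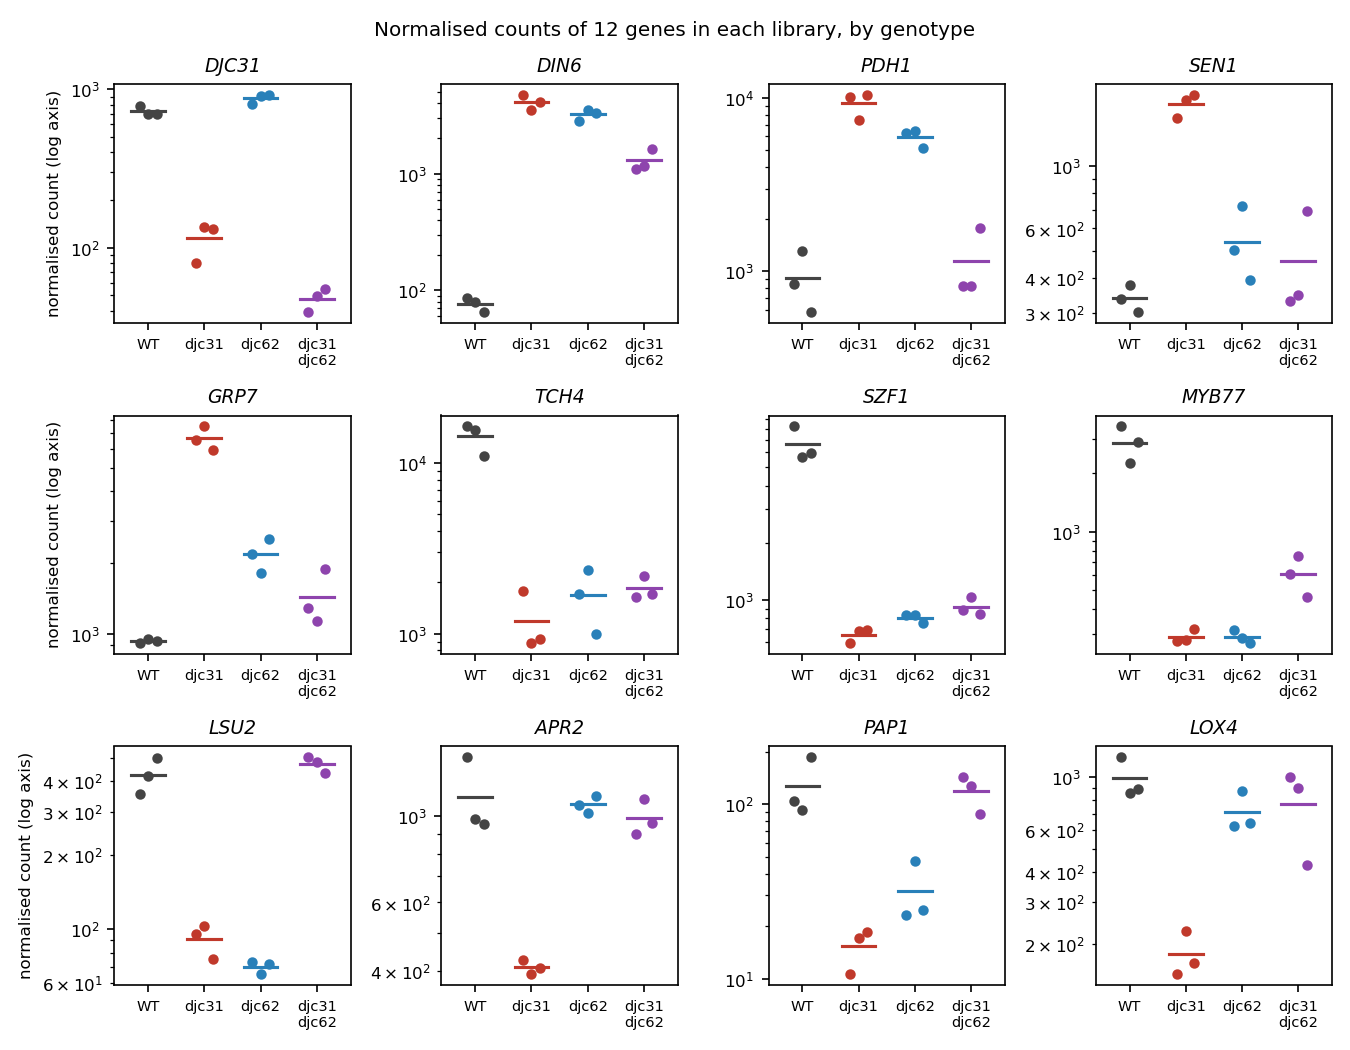
Normalised counts (log axis) of 12 genes in each of the 12 libraries; points are libraries and bars are the means of 3. DIN6, PDH1, SEN1 and GRP7 lie higher in djc31 than in wild type, TCH4, SZF1, MYB77, LSU2, PAP1, APR2 and LOX4 lie lower, and for SEN1, GRP7, APR2 and LOX4 the djc62 libraries lie apart from djc31.

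Against wild type, 5489 of 19975 loci passed, which is 27.5%: 2655 rose (13.3%) and 2834 fell (14.2%). Of all tested loci, 859 rose (4.3%) and 1133 fell (5.67%) by more than 2-fold. The libraries of djc31 and wild type did not overlap in 35.7% of loci. Against djc62, 2749 loci passed (13.8%): 1168 were higher in djc31 (5.85%) and 1581 lower (7.91%), of which 151 (0.756% of tested loci) and 348 (1.74%) by more than 2-fold. The counts against djc62 moved with 2 libraries: 1518 loci passed without djc62 replicate 2, and 1112 without djc62 replicate 3. The wild-type samples stood apart from djc31 in 2 further features. At 34 loci wild type had next to no reads while all mutants did, and at 3 loci the reverse held. Leaving out the 2816 loci near such silent loci left 4904 loci past the threshold. Clock genes differed too, with 7 of 10 dawn genes lower and 4 of 7 evening genes higher in djc31: LHY, a dawn factor, had 3870.4, 3759 and 4322 in wild type and 1147, 1113 and 1274 in djc31. PRR5, a repressor of later hours, had 6.1, 11.2 and 2.32 in wild type and 73, 129 and 136 in djc31. The djc31 libraries were lower in LHY also than djc62 (log2 difference from djc62 -1.02 ± 0.12 SE, adjusted p = 9.33e-05), whereas PRR5 did not pass there (log2 difference from djc62 0.19 ± 0.47 SE, adjusted p = 0.823). Compared with djc62, 4 of the 10 dawn genes were lower in djc31 and 2 of 8 clock output genes higher, while none of the 7 evening genes passed. The comparison with djc62 is thus not free of a clock difference. The part of the clock difference in the differences below was not tested. For many gene groups, though not all, the difference from djc62, which does not use the wild-type libraries, stands beside that from wild type. Both use the same djc31 libraries.

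**Figure D2:**
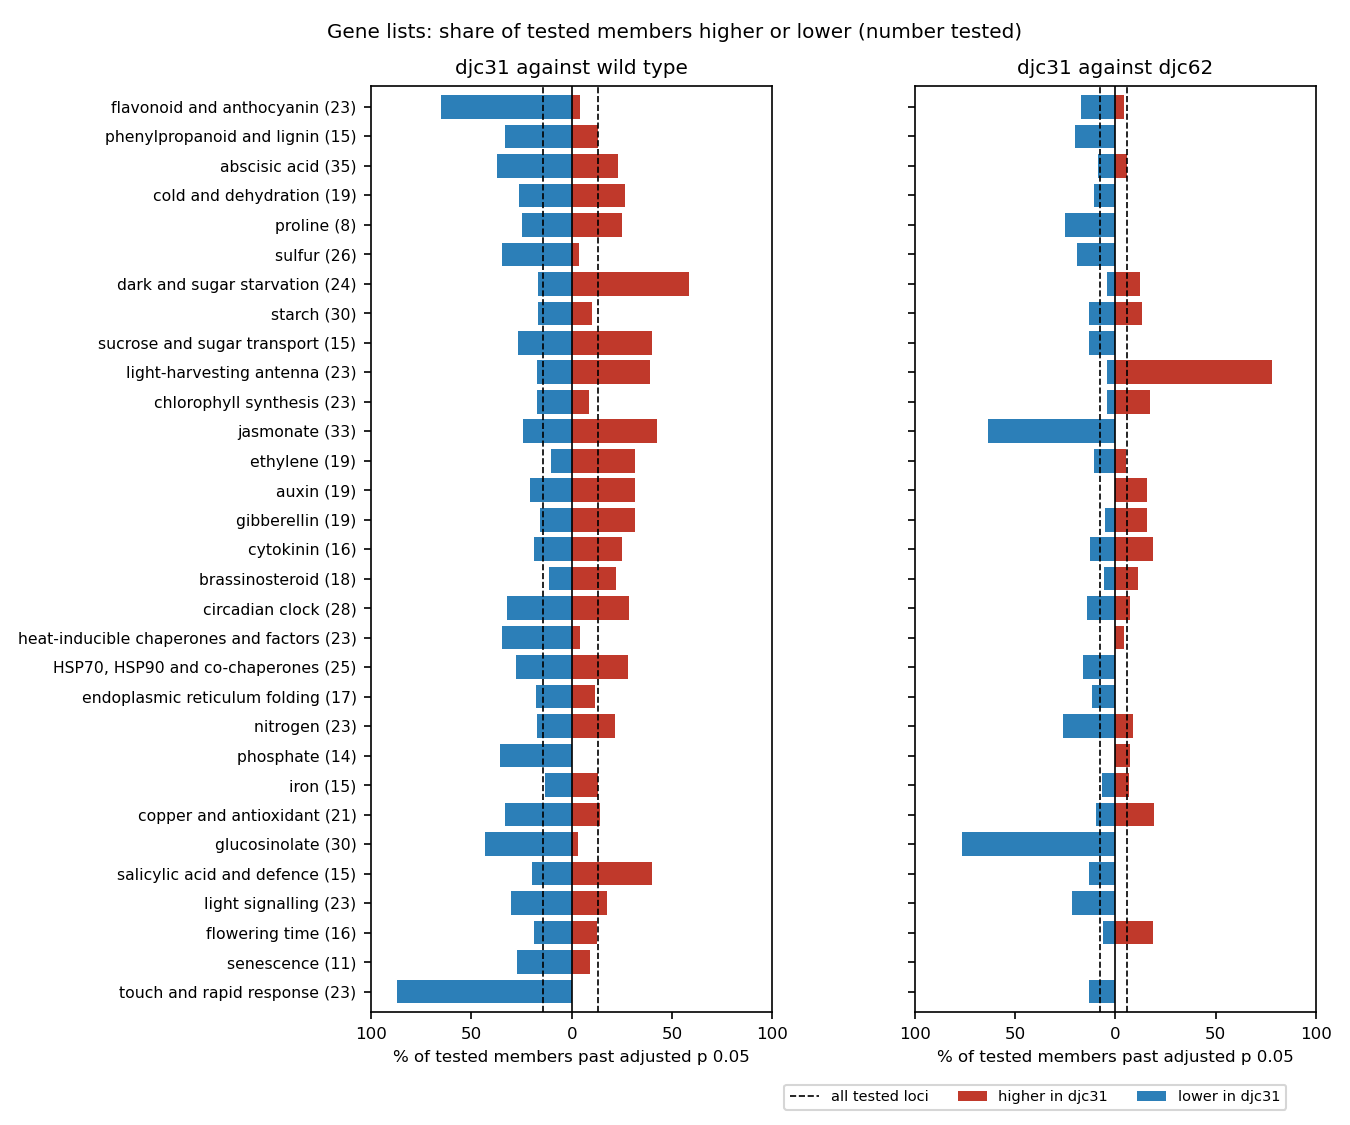
Share of tested members of each gene list that were higher (right) or lower (left) in djc31, against wild type and against djc62, at adjusted p under 0.05; the number tested is in brackets and dashed lines give the share of all tested loci. Touch and flavonoid genes lean to lower and starvation genes to higher against wild type, while jasmonate and glucosinolate genes lean to lower and antenna genes to higher against djc62.

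Genes that plants induce within minutes of touch, wounding and other sudden stimuli were low in djc31. Of 23 tested members 20 fell, none rose, and the median log2 difference was -2.03, beside a median of -0.01 over all tested loci. This list was put together after its values had been seen, so the count describes it and supports nothing further. The other gene lists and the families were chosen with earlier results of these data known, so their counts are descriptions too. TCH4, a xyloglucan-modifying enzyme of the cell wall named for its touch response, had 16410.4, 15616 and 10940.5 in wild type and 1777, 881 and 926 in djc31. The calmodulin-like genes TCH2 and TCH3 bind calcium; TCH2 had 3193, 2927 and 3387 in wild type and 904, 428 and 519 in djc31. In both genes the lowest wild-type library lay far above the highest djc31 library (log2 difference -3.64 ± 0.27 SE, adjusted p = 3.26e-08 for TCH4 and log2 difference -2.43 ± 0.21 SE, adjusted p = 2.01e-07 for TCH2).

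Of the 15 tested transcription factors of this group, 13 fell. SZF1, a CCCH zinc finger protein induced by salt, had 8234, 5697 and 5957 in wild type and 591, 681 and 690.5 in djc31. SZF1 fell (log2 difference -3.32 ± 0.13 SE, adjusted p = 5.82e-12). MYB77, an R2R3 factor of auxin and stress responses, had 3478, 2248 and 2879 in wild type and 276, 277 and 316 in djc31. MYB77 fell (log2 difference -3.28 ± 0.17 SE, adjusted p = 2.47e-10). All djc31 libraries were low to a like degree, and no library overlapped wild type. WRKY40, ZAT10, ZAT12, ERF5, ERF6 and ERF104 fell as well, ZAT10 from 1009 ± 378 to 168 ± 60.7 and ERF104 from 1016 ± 390.2 to 172 ± 12.9. The exceptions were WRKY18, with 1261 ± 530.3 in wild type and 1248 ± 249 in djc31, and WRKY46 (adjusted p = 0.883 and 0.0738). ACS6, an ACC synthase that makes the ethylene precursor, had 4394, 2369 and 4460.4 in wild type and 346, 354 and 277 in djc31 (log2 difference -3.47 ± 0.20 SE, adjusted p = 7.47e-10), and the cold factor CBF2 fell from 129.5 ± 40.1 to 23.1 ± 23.2. Against djc62, 3 of the 23 genes passed, all lower in djc31: WRKY18, WRKY40 and MYBR1; without djc31 replicate 1 there were 6. MYBR1 lost that call without djc31 replicate 2 or 3 or djc62 replicate 1 or 2 (adjusted p up to 0.148). In djc62 SZF1 stood at 806 ± 41.5 and MYB77 at 289 ± 22.9, and in the double mutant at 919 ± 106 and 609 ± 145, all below the lowest wild-type library.

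Genes that plants switch on in the dark or when sugar is short were mostly higher. Of 13 tested markers 11 rose and 1 fell, with a median log2 difference of 1.18. DIN6, an asparagine synthetase that stores nitrogen as carbon runs out, had 86.4, 79.5 and 64.9 in wild type and 4687, 3529.8 and 4125 in djc31, with no overlap (log2 difference 5.72 ± 0.16 SE, adjusted p = 1.32e-14). Glutamate dehydrogenase GDH2, which returns amino acid carbon to respiration, had 719, 812 and 756 in wild type and 3318, 3379 and 2666 in djc31. GDH2 rose (log2 difference 2.03 ± 0.15 SE, adjusted p = 2.74e-08). MCCA, a subunit of methylcrotonyl-CoA carboxylase in leucine breakdown, rose from 620.4 ± 101 to 1723 ± 237, and the branched-chain aminotransferase BCAT2 from 13.5 ± 9.25 to 97.6 ± 28. Further enzymes of branched-chain amino acid breakdown, DIN3, DIN4 and IVD, rose by 0.56 to 0.65 on the log2 scale; IVD lost its call without djc31 replicate 2 (adjusted p = 0.0555). The exception was DIN9, a phosphomannose isomerase, with 128, 181 and 199 in wild type and 61.1, 51.6 and 59.2 in djc31; it fell, and it was lower than in djc62 as well (log2 difference from djc62 -1.54 ± 0.21 SE, adjusted p = 0.000292).

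Against djc62, 1 of these markers was higher in djc31, SEN1, and 1 lower, DIN9. SEN1, known for its strong induction in darkness, had 336, 378 and 301 in wild type and 1492, 1721 and 1793 in djc31. In djc62 it stood at 539 ± 168. No djc31 library overlapped either group (adjusted p = 1.37e-06 against wild type, and log2 difference from djc62 1.67 ± 0.24 SE, adjusted p = 0.000394). For DIN6 the difference from djc62 did not pass (log2 difference from djc62 0.35 ± 0.16 SE, adjusted p = 0.142). In the signalling branch, AKINBETA1, a beta subunit of the energy-sensing kinase SnRK1, rose from 913 ± 72.7 to 2177 ± 223 and was higher than in djc62 as well (log2 difference from djc62 0.71 ± 0.12 SE, adjusted p = 0.00133). Its catalytic subunit KIN10 did not pass (log2 difference 0.19 ± 0.10 SE, adjusted p = 0.175). The bZIP factors that act with SnRK1 went opposite ways: bZIP53 fell from 4694 ± 373 to 1744 ± 329 and bZIP63 rose from 2257 ± 387 to 3335 ± 171. Of 11 sugar transporters 6 rose and 1 fell, the latter by more than 2-fold. Among the rises were the hexose importer STP1, from 2086 ± 525 to 7305 ± 1515, and the sucrose exporters SWEET11 and SWEET12. Compared with djc62, 1 of the 11 transporters was lower in djc31 and none was higher.

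Of 4 sucrose enzymes 3 fell, 1 of them by more than 2-fold. Falls of more than 2-fold were also seen in 1 of 14 genes of starch synthesis and 1 of 16 of starch breakdown. ATSPS4F, a sucrose-phosphate synthase, had 3612, 3134 and 3794 in wild type and 773, 842 and 792 in djc31 (log2 difference -2.13 ± 0.13 SE, adjusted p = 3.14e-09), and it was lower than in djc62 (log2 difference from djc62 -1.13 ± 0.13 SE, adjusted p = 0.000111). GBSS1, the granule-bound starch synthase that makes amylose, fell from 4600.3 ± 927 to 1536 ± 257, and BAM3, a plastid beta-amylase that releases maltose at night, from 5872 ± 809 to 1875 ± 186. Both were also lower than in djc62 (log2 difference -1.05 and -1.03). Of the breakdown enzymes, 3 rose and were also higher than in djc62: ISA3, a debranching enzyme, PHS2, a cytosolic glucan phosphorylase, and DPE1, which disproportionates malto-oligosaccharides (DPE1: log2 difference 0.97 ± 0.11 SE, adjusted p = 3.81e-06 and log2 difference from djc62 0.81 ± 0.11 SE, adjusted p = 0.000264). For ISA3 the difference from djc62 (adjusted p = 0.0332) was lost without djc31 replicate 2 or 3 or djc62 replicate 1 or 3, with adjusted p up to 0.131. Over the whole list of 30 starch genes 3 rose and 5 fell, which is below the share of all loci for rises and close to it for falls.

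Proline is made by P5CS enzymes and broken down by PDH1, and their transcripts moved in opposite directions. PDH1, the mitochondrial proline dehydrogenase, had 842, 1311 and 582 in wild type and 10139.5, 7504 and 10355 in djc31. PDH1 rose (log2 difference 3.42 ± 0.27 SE, adjusted p = 6.01e-08). P5CS1, the stress-induced enzyme of proline synthesis, had 4289, 3406 and 3776 in wild type and 761, 1411 and 1053 in djc31 (log2 difference -1.87 ± 0.17 SE, adjusted p = 3.64e-07), and P5CS2 fell to 1971 ± 300.2 from 3053 ± 168. In djc62 PDH1 was at 5949.9 ± 689, which did not differ from djc31 beyond the threshold (log2 difference from djc62 0.64 ± 0.27 SE, adjusted p = 0.121), while the mean of the double mutant, 1144 ± 549, lay within the range of wild type. For P5CS1 the double mutant had 7641 ± 918, above every wild-type library.

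Abscisic acid, the hormone of drought and dormancy, is perceived by PYR/PYL receptors that block clade A phosphatases and so free the kinases SnRK2. Of 9 receptors 6 rose and 1 fell: PYL6 had 27.4, 57.8 and 23.2 in wild type and 657, 503 and 634 in djc31, PYL4 had 1881, 2371 and 2113 in wild type and 7345, 5044 and 4054 in djc31, and PYR1 rose from 1748 ± 123 to 3608 ± 451. No djc31 library of these 3 overlapped wild type (log2 difference 4.11 ± 0.32 SE, adjusted p = 5.95e-08, log2 difference 1.33 ± 0.17 SE, adjusted p = 1.51e-05 and log2 difference 1.04 ± 0.12 SE, adjusted p = 3.6e-06, in that order). Of 7 phosphatases 5 fell and none rose; AHG3 had 3649, 3688 and 3024 in wild type and 1288, 1036 and 1155 in djc31 (log2 difference -1.57 ± 0.13 SE, adjusted p = 7.93e-08), and HAB1 fell from 1232 ± 27.8 to 462 ± 85.1, lower also than in djc62 (log2 difference from djc62 -0.77 ± 0.15 SE, adjusted p = 0.00273). Compared with djc62, 1 of the 9 receptors and 1 of the 7 phosphatases were lower in djc31, and none was higher. The receptor that fell against wild type, PYL7, had 176, 159 and 152 in wild type and 113, 94.5 and 138 in djc31 (adjusted p = 0.044). PYL7 lost its call when any 1 wild-type library or djc31 replicate 1 or 2 was left out, and with edgeR, DESeq2 or the replicate block, with adjusted p up to 0.156 over all alternatives.

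Downstream of the phosphatases, SNRK2.2 rose to 1689.7 ± 213 from 377 ± 32.1 (log2 difference 2.16 ± 0.12 SE, adjusted p = 5.17e-10), and was higher than in djc62 (log2 difference from djc62 0.49 ± 0.12 SE, adjusted p = 0.0128; 0.0611 without djc62 replicate 3). The factors ABF2 and ABF3, which bind abscisic acid response elements, fell, ABF3 from 2158 ± 158 to 913 ± 213. CYP707A3, which breaks the hormone down, had 2035, 985 and 849 in wild type and 158, 163 and 157 in djc31 (log2 difference -2.90 ± 0.23 SE, adjusted p = 7.14e-08), and NCED3, the limiting step of its synthesis under drought, fell from 262 ± 22.3 to 138 ± 36.5. Over the 35 tested abscisic acid genes 8 rose and 13 fell, the latter 8 without wild type replicate 1. Of 13 cold and dehydration effectors 5 rose and 1 fell, the latter by more than 2-fold. Among the rises were KIN2 (from 1538 ± 272 to 3405 ± 249) and COR47 (from 3897 ± 153 to 7260.1 ± 1397). Compared with djc62, 2 of the 13 effectors were lower in djc31 and none was higher. Of the 6 tested factors of that response 4 fell. In the double mutant PYL6, PYL4, KIN2 and COR47 stood at 45 ± 18.4, 1913 ± 120.3, 1232 ± 285 and 2797 ± 387, near or below the wild-type means.

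Sulfate is reduced to sulfide before it enters cysteine, and shortage of sulfur switches on a known set of genes. Of 9 markers of sulfur shortage 6 fell and none rose, with a median log2 difference of -2.17. From djc62 the median difference was -0.31, with 1 of the 9 lower in djc31 and none higher. LSU2, a small protein induced by low sulfur, had 354, 421 and 499.7 in wild type and 95.6, 103 and 75.2 in djc31 (log2 difference -2.20 ± 0.18 SE, adjusted p = 7.3e-08), and SDI2 had 314, 349 and 343 in wild type and 62.4, 45.1 and 80.3 in djc31. SDI2 fell (log2 difference -2.44 ± 0.23 SE, adjusted p = 4.33e-07). LSU1 and LSU3, of the same family, were nearly off in djc31, at 3.64 ± 3.37 and 3.17 ± 0.935 against 146 ± 54.5 and 78.4 ± 79.9. In sulfate assimilation all 3 genes of APS reductase, the controlling step, fell; APR2 had 1412, 983 and 955 in wild type and 427, 393 and 407 in djc31 and 1068, 1017 and 1123 in djc62. Here djc31 lay below both other genotypes (log2 difference -1.42 ± 0.14 SE, adjusted p = 6.88e-07 and log2 difference from djc62 -1.38 ± 0.14 SE, adjusted p = 2.51e-05), and the same was true of APR1 and APR3 (log2 difference from djc62 -0.83 and -0.74, adjusted p = 0.000566 and 0.0118, the latter 0.0676 at most without djc62 replicate 2 or 3). Sulfate transporters did not pass in either direction, 0 of 5 tested.

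Glucosinolates are sulfur-rich defence compounds of the cabbage family, made from methionine (aliphatic) or tryptophan (indolic). Of 30 tested genes 13 fell and 1 rose against wild type, and 23 were lower and none higher against djc62. Among regulators, MYB29 and MYB76 of the aliphatic branch and MYB51 of the indolic branch fell; MYB29 had 1479.8, 1374 and 1264 in wild type and 445, 724 and 745 in djc31. MYB29 fell (log2 difference -1.14 ± 0.18 SE, adjusted p = 0.000149). Of the enzymes, CYP83B1, which commits to the indolic branch, had 3741, 3002 and 3619.8 in wild type and 2122, 2273 and 1875 in djc31 and 5786, 4704 and 4876 in djc62. The 3 groups were separate, with djc31 lowest and djc62 highest (log2 difference -0.72 ± 0.12 SE, adjusted p = 0.000181 and log2 difference from djc62 -1.29 ± 0.12 SE, adjusted p = 1.13e-05). CYP79B2, the preceding step, showed the same order, with means of 497 ± 123, 805 ± 110.4 and 1441 ± 118 in djc31, wild type and djc62. In the aliphatic branch CYP79F2 did not pass against wild type (log2 difference 0.04 ± 0.21 SE, adjusted p = 0.924) but was lower than in djc62 (log2 difference from djc62 -1.64 ± 0.21 SE, adjusted p = 0.000227). MAM3, which elongates methionine, rose to 332 ± 18.5 from 229 ± 16.2 and was lower than the 862 ± 158 of djc62. NPF2.10, which carries glucosinolates across membranes, had 969.6, 687 and 608 in wild type and 227, 157 and 199 in djc31 and 946, 756 and 865 in djc62. It was lower in djc31 than in both (log2 difference -1.94 ± 0.18 SE, adjusted p = 4.05e-07 and log2 difference from djc62 -2.14 ± 0.18 SE, adjusted p = 4.35e-06). NPF2.10 lies within 50 rows of loci silent on 1 side, in wild type or in the mutants.

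Enzymes of flavonoids and anthocyanins, the pigments and sunscreens of the leaf, fell together: 13 of 14 tested, with a median log2 difference of -1.12. TT7, flavonoid 3'-hydroxylase, had 317, 328 and 312 in wild type and 108, 98.8 and 112 in djc31. TT7 fell (log2 difference -1.58 ± 0.21 SE, adjusted p = 2.66e-05). DFR, which opens the anthocyanin branch, had 1244, 1343 and 1144 in wild type and 654, 522 and 647 in djc31 (log2 difference -1.04 ± 0.16 SE, adjusted p = 0.00012), and LDOX after it fell from 1256 ± 144 to 496 ± 253. The entry enzyme CHS changed less, from 5900.2 ± 925 to 3472 ± 713 (log2 difference -0.77 ± 0.15 SE, adjusted p = 0.00102). Of the regulators 2 fell: PAP1, the MYB activator of anthocyanin genes, had 104, 93.2 and 186 in wild type and 10.6, 17.2 and 18.6 in djc31 (log2 difference -2.93 ± 0.36 SE, adjusted p = 8.34e-06), and its bHLH partner TT8 fell from 110.3 ± 6.18 to 29.9 ± 15.2. Their WD-repeat partner TTG1 rose (log2 difference 0.44 ± 0.11 SE, adjusted p = 0.00624). Against djc62, 4 of the 23 tested genes of the whole list were lower, the enzymes CHS, DFR, FLS1 and AT1G03940, and 9 of the whole list without djc31 replicate 1; for CHS the call was lost without any 1 of 5 libraries, djc31 replicate 1 being the exception (adjusted p up to 0.14). Means in the double mutant were near or above wild type, at 339.6 ± 107 for TT7, 2095 ± 550.1 for DFR and 119 ± 28.4 for PAP1. Earlier in the pathway PAL1 fell from 3487 ± 219 to 1831 ± 117 and 4CL2 fell too (log2 difference -1.53 ± 0.20 SE, adjusted p = 1.72e-05), with 5 of 15 phenylpropanoid genes lower and 2 higher.

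Jasmonate, the wound hormone, is made from plastid lipids, and JAZ proteins repress its response. Of 33 tested genes 14 rose and 8 fell against wild type, whereas 21 were lower and none higher against djc62. In synthesis, allene oxide cyclase AOC1 had 880.2, 815 and 983 in wild type and 4111, 4219 and 2906 in djc31 and 7706, 7007 and 5828 in djc62, so that djc31 lay between the others (log2 difference 2.05 ± 0.17 SE, adjusted p = 7.25e-08 and log2 difference from djc62 -0.88 ± 0.17 SE, adjusted p = 0.00269). OPR3, the peroxisomal reductase of the pathway, and JAR1, which joins jasmonate to isoleucine, showed the same order. LOX4, a 13-lipoxygenase at the start of the pathway, went the other way and was lowest in djc31, with 1211, 859 and 896 in wild type and 150, 228 and 167 in djc31 and 623, 874 and 643 in djc62 (log2 difference -2.44 ± 0.25 SE, adjusted p = 1.37e-06 and log2 difference from djc62 -1.97 ± 0.25 SE, adjusted p = 0.000194). AOC3 and OPCL1 were lower in djc31 than in both as well. Of 12 genes for JAZ repressors and the receptor, 4 fell and 1 rose against wild type and 8 were lower than in djc62, 5 without djc62 replicate 2. JAZ1 fell from 759.5 ± 121 to 227 ± 13.5, with 512 ± 111 in djc62, and JAZ7, which is also touch-inducible, from 534 ± 111 to 48.9 ± 19. The storage protein target VSP2 had 441, 459.5 and 343 in wild type and 911, 930.2 and 509 in djc31 and 1871, 1637 and 1367 in djc62.

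**Figure D3:**
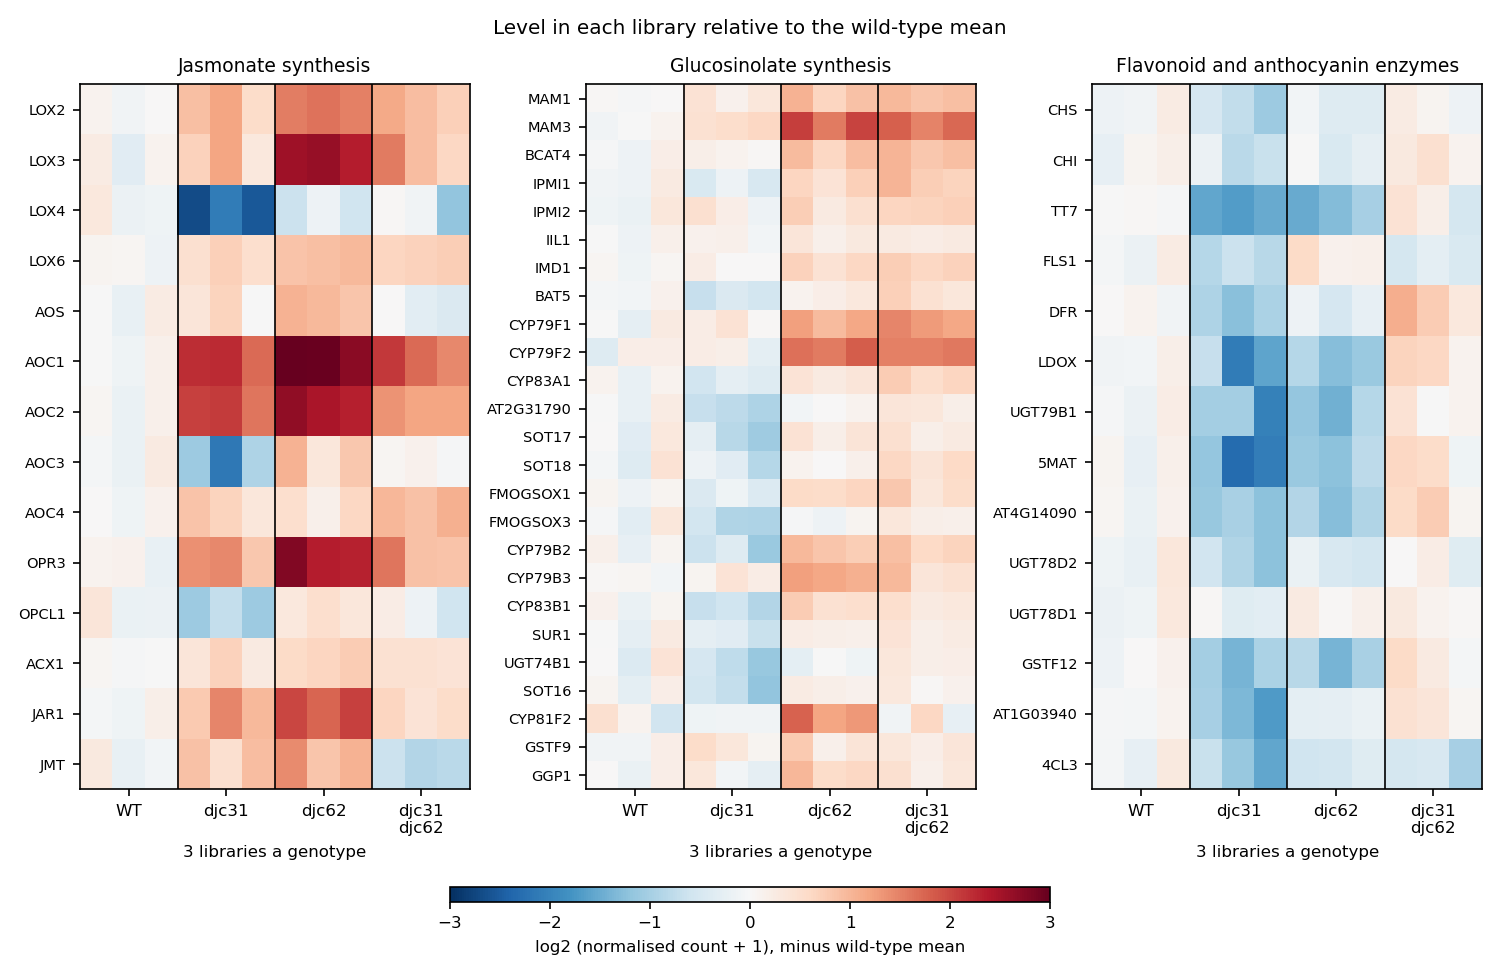
Level of each tested gene of jasmonate synthesis, glucosinolate synthesis and flavonoid synthesis in each library as log2(value + 1) minus the wild-type mean; red is higher and blue lower, and columns are the 3 libraries of each genotype. Flavonoid enzymes are mostly blue in djc31 and djc62 and mostly pale or red in the double mutant, glucosinolate genes are mostly red in djc62 and mostly pale or blue in djc31, and LOX4 is blue in djc31.

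Antenna proteins, which bind chlorophyll and hand light energy to the photosystems, were higher in djc31 with a call that depended on few libraries. Of 23 tested antenna genes 9 rose and 4 fell against wild type, and 18 were higher and 1 lower against djc62. LHCB1.4 had 107293, 121267 and 115197 in wild type and 257244, 318473 and 207192 in djc31 (log2 difference 1.17 ± 0.18 SE, adjusted p = 0.000114); its groups did not overlap, and it was higher than in djc62 (log2 difference from djc62 1.48 ± 0.18 SE, adjusted p = 0.000144). The 9 rises became 3 without djc31 replicate 1, 1 without djc31 replicate 2, and 1 without wild type replicate 1 or 2, while edgeR called 14 and DESeq2 15. Against djc62 the 18 became 9 without djc62 replicate 3. Of 44 photosystem subunit genes 3 rose and 1 fell against wild type, the rises being 9 without djc31 replicate 3 and 5 without wild type replicate 3. Against djc62, 18 of the 44 were higher and none lower, 3 of them without djc62 replicate 3. LHCB1 genes are near-identical copies, so reads may be shared among them. The early light-induced proteins ELIP1 and ELIP2, which protect against excess light, fell, ELIP1 from 246 ± 39.9 to 75.4 ± 30.8.

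In chlorophyll synthesis PORB, the light-dependent protochlorophyllide reductase, had 11202, 11555 and 10623 in wild type and 29144, 29249.9 and 24884 in djc31 (log2 difference 1.32 ± 0.11 SE, adjusted p = 1.23e-07) and was higher than in djc62 (log2 difference from djc62 1.05 ± 0.11 SE, adjusted p = 4.03e-05). FC1, the stress-type ferrochelatase of the haem branch, fell from 1635 ± 20.3 to 761 ± 140.4, and HEMA1, the first enzyme, from 28649 ± 2388 to 19371 ± 2551. Of light signalling genes, HYH, the relative of HY5, had 884, 841 and 1202 in wild type and 267, 256 and 216 in djc31. It was lower in djc31 than in wild type and djc62 (log2 difference -1.97 ± 0.15 SE, adjusted p = 4.97e-08 and log2 difference from djc62 -1.42 ± 0.15 SE, adjusted p = 4.78e-05). BBX31, BBX32, COP1 and SPA1 fell and the photoreceptor gene PHYA rose, from 1614 ± 302 to 2978 ± 151. GRP7, a clock-controlled RNA-binding protein, had 915, 954 and 932 in wild type and 6545, 7493 and 5968 in djc31. Means were 2165 ± 356 in djc62 and 1435 ± 388 in the double mutant, so djc31 was the highest of the 4 genotypes (log2 difference 2.83 ± 0.16 SE, adjusted p = 5.52e-10 and log2 difference from djc62 1.63 ± 0.16 SE, adjusted p = 2e-05).

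**Figure D4:**
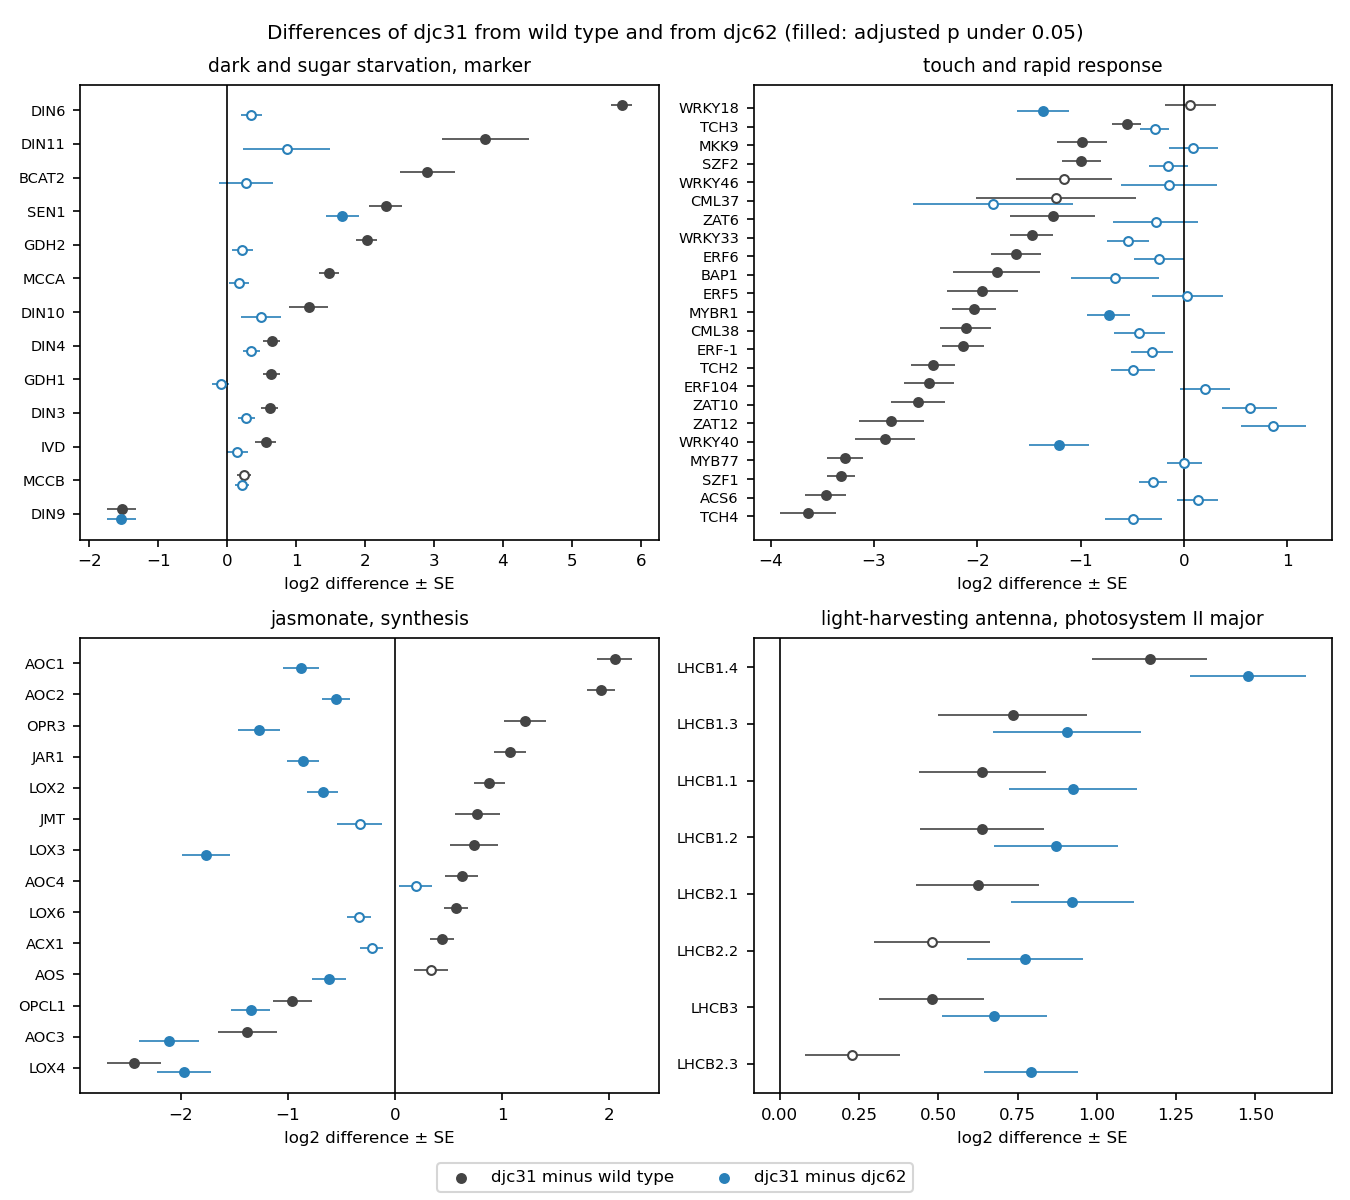
Log2 difference of djc31 from wild type (dark grey) and from djc62 (blue), with standard errors, for tested members of 4 groups; filled points passed the adjusted p threshold. Starvation and touch genes lie far from 0 against wild type and mostly near 0 against djc62, most jasmonate synthesis genes lie on opposite sides of 0, LOX4, AOC3 and OPCL1 lie below it in both, and major antenna genes lie above 0 in both.

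Among growth hormones, auxin genes included rises in synthesis: TAA1, which makes the precursor indole-3-pyruvate, had 225, 198 and 274 in wild type and 466, 417 and 424 in djc31 and 205, 186 and 242 in djc62. It was higher in djc31 than in both (log2 difference 0.92 ± 0.19 SE, adjusted p = 0.00166 and log2 difference from djc62 1.05 ± 0.19 SE, adjusted p = 0.00236). Of 11 tested early auxin response genes 2 rose and 3 fell, with a median log2 difference of -0.02. Over the whole auxin list 4 fell, being 2 without djc31 replicate 2 or 3 and 1 without wild type replicate 2. IAA29, a repressor that is itself shade- and auxin-induced, had 10.2, 17.7 and 31.3 in wild type and 177, 153 and 209.6 in djc31 and 65.2, 61 and 54.7 in djc62. IAA29 was higher than in both others (log2 difference 3.25 ± 0.31 SE, adjusted p = 6.09e-07 and log2 difference from djc62 1.55 ± 0.31 SE, adjusted p = 0.00409). Of 60 tested small auxin-up genes 14 rose (23.3%, beside 13.3% of all tested loci) and 4 fell. Their median log2 difference was -0.02, beside -0.01 over all tested loci. Compared with djc62, 6 were higher and 1 lower, the higher ones being 2 without djc31 replicate 1 or djc62 replicate 3. SAUR41 had 20.3, 19.3 and 23.2 in wild type and 324, 273 and 216 in djc31 and was also above djc62 (log2 difference 3.62 ± 0.31 SE, adjusted p = 1.53e-07 and log2 difference from djc62 1.24 ± 0.31 SE, adjusted p = 0.0146, or 0.055 without djc62 replicate 1). The falls of small auxin-up genes against wild type were 9 without djc31 replicate 1 and 2 without djc31 replicate 3 or wild type replicate 1 or 2. CPD, an enzyme of brassinosteroid synthesis, had 3036, 2833 and 2858 in wild type and 5196, 5775 and 5588 in djc31, higher than wild type and djc62 (log2 difference 0.92 ± 0.09 SE, adjusted p = 9.89e-07 and log2 difference from djc62 0.66 ± 0.09 SE, adjusted p = 0.000328). The gibberellin target GASA1 rose from 3112 ± 675 to 11866 ± 3193 and GASA6 fell from 3985 ± 589.6 to 1796 ± 369.9. Of the cytokinin type-A response regulators 4 of 8 rose and 1 fell, ARR7 from 759 ± 101 to 2079.8 ± 17.8. In ethylene synthesis the oxidase ACO4 rose from 2839 ± 191 to 7630.2 ± 1564, against the falls of ACS6 and of ACS11, from 623 ± 54 to 103 ± 49.2.

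Genes for wall loosening leaned to lower. Of 20 expansins, which loosen walls without cutting them, 9 fell and 3 rose against wild type, and 3 were lower and 1 higher against djc62. EXPA8 had 1532, 1132 and 2116 in wild type and 275, 359 and 289 in djc31, and EXPB1 had 493, 350.3 and 511 in wild type and 50.4, 85.9 and 69.3 in djc31. Neither gene's groups overlapped (log2 difference -2.33 ± 0.22 SE, adjusted p = 6.09e-07 and log2 difference -2.71 ± 0.23 SE, adjusted p = 1.04e-07, in that order). Of 22 xyloglucan endotransglucosylases 9 fell and 3 rose against wild type, and 1 was lower and 3 higher against djc62. Those 9 became 4 without djc31 replicate 2 or wild type replicate 2, and 5 without djc31 replicate 3 or wild type replicate 1. XTH31 had 1992, 1292 and 2634 in wild type and 141, 185 and 81.1 in djc31 (log2 difference -3.87 ± 0.25 SE, adjusted p = 5.21e-09), and XTH32 fell from 1184 ± 221 to 458 ± 77.2. The pectin methylesterase gene ATPMEPCRB was lower than in wild type and djc62, with 905, 1006 and 598 in wild type and 178, 51.6 and 62.5 in djc31 and 384, 359 and 340.4 in djc62 (log2 difference -3.28 ± 0.32 SE, adjusted p = 6.8e-07 and log2 difference from djc62 -2.10 ± 0.32 SE, adjusted p = 0.000615). In the double mutant it stood at 906 ± 160 and did not pass against wild type (limma, adjusted p = 0.787). Of 13 plasma membrane aquaporins, which are water channels, 6 fell and 2 rose against wild type, and 1 was lower and 1 higher against djc62. The 6 falls became 1 without djc31 replicate 3 and 2 without wild type replicate 1 or 3. PIP1C rose from 4396 ± 319 to 10427 ± 747, while RD28 fell from 1636 ± 176 to 832 ± 53.7.

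HSP70 and HSP90 are the chaperones that proteins of the DJC31 type bind. Of 25 tested genes of HSP70, HSP90 and their co-chaperones 7 rose and 7 fell, and the rises were 4 without djc31 replicate 2. Compared with djc62, 4 of the 25 were lower and none higher. The cytosolic HSP70 gene AT3G09440 had 3357, 2588 and 4863 in wild type and 1298, 1261 and 961 in djc31. AT3G09440 fell (log2 difference -1.58 ± 0.18 SE, adjusted p = 3.03e-06). The cytosolic HSP90 gene HSP90.2 had 1257, 1511 and 1796 in wild type and 3764, 3195 and 2676 in djc31 (log2 difference 1.08 ± 0.14 SE, adjusted p = 1.17e-05). HSP90.3, close to it in locus number and similar in sequence, fell with overlapping libraries (log2 difference -0.52 ± 0.16 SE, adjusted p = 0.0223), and lost its call without djc31 replicate 2 or 3 or wild type replicate 1 or 3 (up to 0.116). Of the tetratricopeptide co-chaperones TTL4 and TTL3 rose and TTL1 fell, TTL1 losing its call without wild type replicate 1 (adjusted p = 0.0502); TTL4 had 475, 508 and 277 in wild type and 852, 861 and 991 in djc31. TTL4 rose (log2 difference 1.15 ± 0.17 SE, adjusted p = 8.8e-05). Among 23 heat-inducible chaperones and factors 8 fell and 1 rose, 5 of the falls being left without wild type replicate 1 or 3. HSC70-4 fell from 227 ± 29.9 to 48 ± 10.2 and the repressor HSFB2A from 539 ± 178 to 99.3 ± 15.2. Over 105 tested J-domain proteins 16 rose and 16 fell, near the share of all loci in each direction. J11, a small plastid J-domain protein, rose from 3109 ± 138 to 6054 ± 697 and was higher than in djc62 (log2 difference from djc62 0.91 ± 0.13 SE, adjusted p = 0.000424), and DJC82 fell from 699 ± 74.3 to 291 ± 53.6. Fes1B, whose yeast relative exchanges the nucleotide of HSP70, had 711, 798 and 554 in wild type and 1508, 1521 and 1551 in djc31, above djc62 too (log2 difference 1.17 ± 0.15 SE, adjusted p = 1.22e-05 and log2 difference from djc62 1.12 ± 0.15 SE, adjusted p = 0.000227).

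Other nutrient genes included strong single falls. The ammonium transporter AMT1;2 had 1126, 895 and 1735 in wild type and 187, 198 and 184 in djc31. AMT1;2 fell (log2 difference -2.66 ± 0.20 SE, adjusted p = 3.7e-08). COPT2, a copper importer induced by low copper, had 323, 308 and 438 in wild type and 50.4, 51.6 and 33.8 in djc31. COPT2 fell (log2 difference -2.96 ± 0.23 SE, adjusted p = 5.45e-08). PAP17, an acid phosphatase of phosphate shortage, fell from 146 ± 45.3 to 18.7 ± 2.72, and 5 of 14 phosphate genes fell and none rose, with 3 falls left without djc31 replicate 2 or wild type replicate 3. The ferric reductase FRO3 rose from 122 ± 45.2 to 577 ± 131 and the ferritin FER1 rose from 6818 ± 1179.7 to 9928 ± 382. The catalases, which destroy hydrogen peroxide, split: CAT2 had 38442, 33701 and 44788 in wild type and 20945, 21189 and 17524 in djc31, CAT1 had 599, 608 and 639 in wild type and 1262, 1384 and 1195 in djc31, and CAT3 rose from 14111 ± 496 to 25038 ± 3627. Both passed against wild type (log2 difference -0.97 and 1.05, adjusted p = 1.49e-05 and 1.03e-06), and CAT2 was lower and CAT1 higher than in djc62 as well (log2 difference from djc62 -0.64 ± 0.12 SE, adjusted p = 0.00316 and log2 difference from djc62 0.61 ± 0.11 SE, adjusted p = 0.00162).

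Of 96 tested genes for resistance proteins with nucleotide-binding and leucine-rich domains 20 rose and 28 fell against wild type; without the loci near those silent in wild type or mutants the rises were 9. None was higher than in djc62, and 16 were lower, 10 without djc62 replicate 2 and 8 without djc62 replicate 3. Of 36 cysteine-rich receptor kinases 11 fell and 5 rose, the rises being 9 without djc31 replicate 1, and 15 were lower than in djc62. CRK10 had 1654, 1422 and 1444 in wild type and 524, 554 and 517 in djc31 and 1188, 1091 and 1038 in djc62, lowest in djc31 (log2 difference -1.50 ± 0.13 SE, adjusted p = 1.16e-07 and log2 difference from djc62 -1.05 ± 0.13 SE, adjusted p = 0.000111). Cytochrome P450 genes fell in 42 and rose in 15 of 139 cases, and 24 were lower and 2 higher against djc62. Of 33 MATE efflux genes 10 fell and 4 rose against wild type, the rises being 7 without wild type replicate 3, and 10 were lower and 1 higher against djc62. AT1G61890 of that family had 2595, 1993 and 1842 in wild type and 765, 623 and 437 in djc31 (log2 difference -1.84 ± 0.23 SE, adjusted p = 1.21e-05 and log2 difference from djc62 -1.66 ± 0.23 SE, adjusted p = 0.000325), and DTX18 rose from 25.8 ± 16.6 to 419 ± 14.8. In the salicylic acid group WRKY70 fell from 1752 ± 429 to 497 ± 138. The pathogenesis-related gene PR1 had 4.07, 9.64 and 0 in wild type and 26.5, 563 and 43.9 in djc31. Its djc31 libraries spread widely and all lay above wild type (log2 difference 4.55 ± 1.14 SE, adjusted p = 0.00617).

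**Figure D5:**
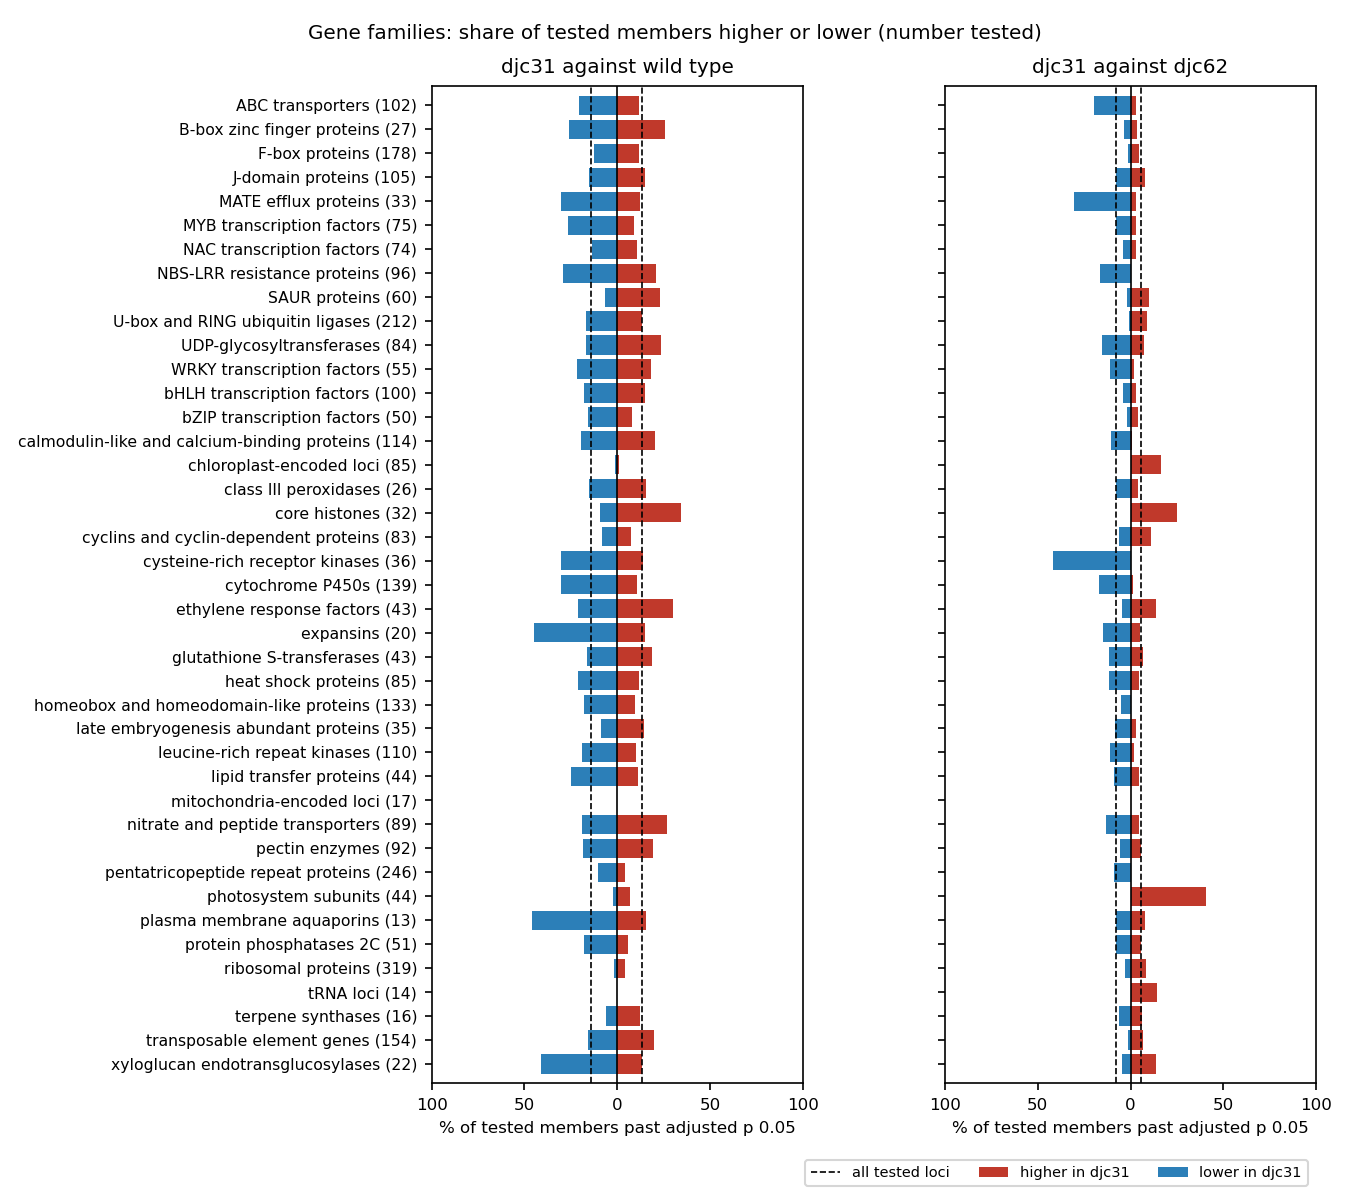
Share of tested members of each gene family that were higher (right) or lower (left) in djc31 at adjusted p under 0.05, against wild type and against djc62; the number tested is in brackets and dashed lines give the share of all tested loci. Expansins, xyloglucan enzymes, P450 and MATE genes lean to lower against wild type, cysteine-rich receptor kinases to lower and photosystem subunits to higher against djc62, and ribosomal protein genes have small shares in both.

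Ribosomal protein genes were at the low end, with 14 of 319 tested rising and 6 falling. These counts moved with single libraries: the rises were 38 without djc31 replicate 3, 23 without wild type replicate 3 and 9 without wild type replicate 2. The falls were 17 without djc31 replicate 1, 3 without djc31 replicate 2 and 2 without wild type replicate 1. Histone genes leaned to higher, 11 of 32 rising and 3 falling, with 7 rises left without djc31 replicate 1 or wild type replicate 1 and 6 without wild type replicate 2. Compared with djc62, 8 were higher and none lower. The higher ones were 3 without djc62 replicate 2 or 3, 4 without djc31 replicate 1 and 13 without djc31 replicate 3. H3.3 (AT5G10980), a replacement histone, had 3103, 2907 and 3751 in wild type and 10789.9, 9638 and 7848 in djc31. H3.3 rose (log2 difference 1.53 ± 0.13 SE, adjusted p = 1.66e-07). It was higher than the 3319 ± 459 of djc62 as well (adjusted p = 7.31e-06). Of 85 tested chloroplast-encoded loci 1 rose and 1 fell against wild type, the falls being 5 without djc31 replicate 1, and 14 were higher than in djc62, 8 without djc62 replicate 3. Pentatricopeptide repeat proteins, which process organelle RNA, fell in 25 and rose in 10 of 246 cases, the falls being 15 without wild type replicate 1. These shares, 10.2% and 4.1%, were below the 14.2% and 13.3% of all tested loci. Compared with djc62, 22 were lower and 1 higher, the lower ones being 11 without djc62 replicate 2 and 10 without djc62 replicate 3. Of all tested loci, 7.91% were lower and 5.85% higher than in djc62.

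Single loci were ranked where djc31 and wild type did not overlap, with a mean of at least 5 CPM in the higher genotype and more than 3 reads summed over the lower one; loci silent on 1 side, some with larger fitted differences, do not enter. Under this rule the 3 largest rises were those of loci low in wild type. The first 2, HSD2 and PLC8, lie within 50 rows of loci silent on 1 side, and the third, HR4, does not. HSD2, a steroid dehydrogenase family gene, had 2.03, 0 and 4.64 in wild type and 4026, 3549 and 3189.6 in djc31. PLC8, a phospholipase C, had 1.02, 1.61 and 2.32 in wild type and 1391, 1252 and 1245 in djc31. HR4, a relative of the mildew resistance gene RPW8, had 1.02, 4.82 and 3.48 in wild type and 1720.2, 1525 and 1349 in djc31. In djc62 they stood at 3203 ± 192, 1365 ± 46.1 and 2079.7 ± 281 (adjusted p of the difference = 0.814, 0.798 and 0.29). Under the same rule the largest fall was that of HISN6B, of histidine synthesis, with 528, 162 and 174 in wild type and 2.65, 0 and 3.38 in djc31 (adjusted p = 3.35e-06; adjusted p of the difference from djc62 = 0.414). AT2G27420, described as a cysteine proteinase, had 805, 518 and 1210.5 in wild type and 55.7, 60.2 and 18.6 in djc31; its difference from djc62 (log2 difference from djc62 -1.35 ± 0.40 SE, adjusted p = 0.0344) was lost without djc31 replicate 3 or any 1 djc62 library, with adjusted p up to 0.12.

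Some genes departed from both wild type and djc62. Apart from DJC31, GRP7, SEN1, IAA29, LOX4 and NPF2.10 above, MBD7, a methyl-CpG-binding protein that counters gene silencing, had 464, 451 and 299 in wild type and 70.3, 81.6 and 107 in djc31 and 339, 275 and 342 in djc62. MBD7 was lower than in both others (log2 difference -2.21 ± 0.23 SE, adjusted p = 1.78e-06 and log2 difference from djc62 -1.88 ± 0.23 SE, adjusted p = 0.000148). The wall acetylation family gene TBL26 had 539.7, 455 and 1049 in wild type and 88.9, 101 and 75.2 in djc31 and 372, 422 and 336 in djc62. TBL26 was lower than in both others (log2 difference -2.84 ± 0.28 SE, adjusted p = 7.56e-07 and log2 difference from djc62 -2.08 ± 0.28 SE, adjusted p = 0.000251). CP1, a calcium-binding protein induced by salt, had 1186, 969 and 1765 in wild type and 526, 425 and 325 in djc31 and 1189, 1357 and 1273 in djc62, lowest in djc31 (log2 difference -1.60 ± 0.19 SE, adjusted p = 7.49e-06 and log2 difference from djc62 -1.61 ± 0.19 SE, adjusted p = 0.000119). Among the rises, CRF7, a cytokinin response factor, went from 52.4 ± 21.5 to 150 ± 39.7, with 58.4 ± 6.54 in djc62, and AT5G41761, which the files describe as of unknown function, from 51.9 ± 6.54 to 287 ± 67, with 118 ± 20.6 in djc62. The double mutant, also disrupted in DJC31, did not share all of these differences. NPF2.10 (803 ± 126), LOX4 (776 ± 303), SEN1 (458 ± 204), TBL26 (404 ± 139) and CRF7 (76.1 ± 6.96) did not pass there against wild type. Their adjusted p from limma were 0.701, 0.229, 0.289, 0.0608 and 0.133. DJC31, MBD7, IAA29, CP1, GRP7 and AT5G41761 did pass there, in the direction seen in djc31.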

How the data were processed

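RNA of whole Arabidopsis plants was sequenced in 12 libraries, 3 for each of 4 genotypes, grouped by their labels. Per the submitters' processing notes, Trimmomatic, FastQC, featureCounts and TAIR10 were used; of the aligner, the versions, the strand setting and multiply mapped reads nothing is stated in the sources used here. The deposited table holds a normalised signal per locus, counts divided by a size factor; its file header names DESeq2. Whole reads were recovered from it in 100% of values (within 0.01), giving 13.6 to 31.08 M reads a library. Reads shared by near-identical or overlapping genes, or by antisense partners, may be split in ways that cannot be told apart.

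Loci reaching a value of 10 in 3 or more libraries (19975) were tested with limma 3.58.1 in R 4.3.3 on log2(value + 1), with a mean-variance trend, 1 mean per genotype over all 12 libraries and 8 residual degrees of freedom, two-sided, with Benjamini-Hochberg adjustment and a threshold of 0.05. A fold on this scale understates changes of low loci. Since whole reads could be recovered, edgeR 4.0.16 and DESeq2 1.42.0 served as alternatives; others were pseudocounts of 0.5 and 5, no filter, TMM scaling, only the 2 genotypes compared, a replicate block, leaving out each library, and leaving out 2816 loci within 50 rows of loci silent on 1 side. On simulated data, with 200 loci changed in the comparison with wild type, 69% of 2-fold and 87% of 4-fold changes were recovered. In the data 5489 loci passed, and the adjustment depends on that share, so these rates do not measure recovery there.

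The gene lists (34), families (42, from symbols and descriptions) and compared groups were chosen with earlier results of these data known. Named genes were DJC31 and DJC62; the 10 largest rises and falls past the threshold, without overlap, with a mean of at least 5 CPM in the higher genotype and more than 3 reads in the lower; 10 each that also passed against djc62; up to 5 members of lowest adjusted p per list and 3 per family; and members filling a role. No set was tested. Figures were drawn with Python 3.11.15, pandas 2.3.3, numpy 2.4.6 and matplotlib 3.10.9.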

Additional observations from a re-analysis of the deposited data

How the results depend on the processing

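The transcript of DJC31 was lower than in wild type under every alternative run, with log2 differences from -2.82 to -2.44. Loci past the threshold against wild type numbered 5489, between 4156 and 5557 when 1 library was left out (2058 to 2685 higher, 2098 to 2872 lower), and between 3815 and 5981 under the other alternatives, within 1.5 times the count given. Against djc62 the 2749 loci (1168 higher, 1581 lower) ranged from 1112 to 3192 when 1 library was left out (391 to 1413 higher, 721 to 1779 lower): 1518 without djc62 replicate 2 (601 higher, 917 lower) and 1112 without djc62 replicate 3 (391 and 721). With only the libraries of the 2 genotypes compared there were 1093 (384 higher, 709 lower), a fit with fewer libraries for the spread. Of 356 list members and named genes called against wild type, none changed sign and between 0 and 61 lost the call under an alternative, the most with only the 2 genotypes compared and next 53 without wild type replicate 1. Replicate numbers did not pair the samples: same-numbered wild-type and djc31 libraries deviated with correlations of -0.14, -0.01 and -0.15. With the replicate block, 5204 loci passed against wild type (2490 higher, 2714 lower) and 2379 against djc62 (973 higher, 1406 lower), and DJC31 differed by -2.69 (limma, adjusted p = 4e-08). The lowest depth, 13.6 M reads in djc31 replicate 2, limits calls at low loci.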

Other observations

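Loci that set the 2 genotypes with a disrupted DJC31 apart from the 2 with an intact one were sought after values had been seen, so what follows is a description. In 34 loci all 6 libraries of djc31 and the double mutant lay below all 6 of wild type and djc62, with djc31 itself over 2-fold lower than each of those 2 genotypes, and in 15 loci they lay above, with djc31 over 2-fold higher. No such fold was asked of the double mutant; PORB, for example, had 16754 ± 2038 there and 13375 ± 307 in djc62. DJC31 itself was among the lower loci. MBD7 had means of 405 ± 91.7 and 319 ± 38 in wild type and djc62 against 86.4 ± 19 and 48.6 ± 12.8 in djc31 and the double mutant. The light signalling factor HYH had 976 ± 197 and 661 ± 85.5 against 246 ± 27 and 378 ± 29.9, and the starch-degrading enzyme BAM3 had 5872 ± 809 and 3824 ± 262 against 1875 ± 186 and 2033 ± 381. AO, which starts NAD synthesis from aspartate, had 704 ± 175 and 419 ± 56.7 against 167 ± 9.07 and 286 ± 39.2.

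Among the 15 higher loci, PORB had 27759 ± 2491 and 16754 ± 2038 in djc31 and the double mutant against 11127 ± 471 and 13375 ± 307 in wild type and djc62. COR413IM1, a cold-regulated protein of the inner chloroplast membrane, had 669 ± 78.6 and 446 ± 60.2 against 295 ± 47.3 and 225 ± 59.3. AT5G10960, H3.3 (AT5G10980), AT5G11020 and Rap2.6L (AT5G13330) carry locus numbers on chromosome 5 not far from that of DJC31 (AT5G12430). AT5G11020 had 338 ± 13.6 and 309.9 ± 34.6 against 157 ± 44.3 and 133 ± 35.5.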
